A study of Danio rerio with 26 samples.

Results

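The 8 genes described here are among 30979 listed in the RNA-Seq tables of the series. They were picked, from 28441 genes listed at 12 hours post fertilization (hpf), for large differences between upf1 morphants and uninjected controls at that stage. In the morphants 6 of them stood higher: si:dkey-204l11.1 (ENSDARG00000079403), RNF14 (ENSDARG00000078683), si:dkey-27j5.3 (ENSDARG00000007289), si:zfos-80g12.1 (ENSDARG00000102379), pik3r3a (ENSDARG00000103038) and rasl11b (ENSDARG00000015611). The other 2, ivns1abpb (ENSDARG00000013946) and rpl22l1 (ENSDARG00000010244), stood lower. They were chosen on that contrast, so their 12 hpf values are a description with no test, and the question put to the data is which of these differences recur in embryos mutant for the exon junction complex (EJC) genes rbm8a and magoh.

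Upf1 is an RNA helicase at the centre of nonsense-mediated mRNA decay (NMD), the pathway that degrades mRNAs on which translation stops too early, and also many full-length mRNAs with particular 3′UTR or upstream reading frame features. The EJC, with Eif4a3, Rbm8a and Magoh at its core, is left on mRNA near exon-exon junctions by splicing. An EJC that remains downstream of a stop codon marks the mRNA for Upf1-dependent decay, so NMD targets are expected among transcripts raised by the loss of either.

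The morphants were injected at the 1-cell stage with a splice-blocking upf1 morpholino, which lowers Upf1 without removing the gene, and poly(A) RNA of 30 embryos per library was sequenced in 2 morphant and 2 uninjected control libraries. As the controls were uninjected, effects of the injection or of the morpholino itself cannot be told apart from those of lower Upf1. The mutants were homozygous for the CRISPR frameshift alleles rbm8a oz36 or magoh oz37, and the wild-type sibling libraries pooled wild-type and heterozygous embryos. Each mutant comparison had 3 mutant and 3 sibling libraries of 25 embryos, from ribosomal RNA-depleted RNA, taken at 21 hpf (magoh and rbm8a) or 27 hpf (rbm8a). Homozygotes start with maternally supplied Rbm8a and Magoh, whose stores decline around these stages. RNA came from whole embryos, so fewer cells of a type and less RNA per cell cannot be told apart. The study calls the replicates biological and states that they were sequenced in more than 1 run, which the labels do not give. Whether they came from separate clutches is not stated, so p-values measure the spread between these libraries, which may be technical.

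Values were FPKM, fragment counts scaled to transcript length and to a factor for each library. The authors normalized them separately within each table, so levels are not compared between tables. Depth recovered from the values was 73345144 to 93157779 reads per library at 12 hpf, 14884594 to 24086384 reads in the magoh table, 1561184 to 71708321 reads in the rbm8a table at 21 hpf and 9193992 to 95877745 reads at 27 hpf. In each mutant table the levels of the targeted gene overlapped between the labelled groups, so libraries are named as labelled mutant or sibling, and "by label" means labelled mutant minus labelled sibling. Transcripts of rbm8a at 27 hpf were at 3.69, 3.65 and 14.4 FPKM for the labelled mutants, against 2.82, 12.7 and 10.7 FPKM for the labelled siblings. The columns alternate between labelled mutant and sibling libraries. The first 3 columns of each mutant table are therefore labelled mutant 1, sibling 1 and mutant 2, and the last 3 are labelled sibling 2, mutant 3 and sibling 3. Values by this place in the table were also asked for and are given below without a test and without naming a group from them. All 16 muscle, neural, erythroid, notochord and epidermal markers looked up for whole embryos were above 0 in at least 1 library of every mutant table and of the 12 hpf table, where the erythroid markers were near 0 with summed levels of 1.74 to 2.20 FPKM.

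The largest difference of the 8 belonged to si:dkey-204l11.1, which RefSeq lists under the synonym tnfrsf27 and whose human namesake, also called EDA2R, is the receptor for ectodysplasin A2. It was at 21.6 and 24.7 FPKM in the morphants and at 1.64 and 2.06 FPKM in the controls, a 12.5-fold difference of the means. The gene named RNF14 in the Ensembl name table, after a RING-type E3 ubiquitin ligase, was at 19.4 and 28.8 FPKM against 2.80 and 2.91 FPKM, 8.45-fold higher. Its morphant libraries differed from each other more than those of any other of the 8 genes. The gene si:dkey-27j5.3, named metrnlb in the name table after the secreted meteorin-like protein, was at 40.3 and 38.7 FPKM against 5.25 and 5.98 FPKM, 7.03-fold higher.

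The gene si:zfos-80g12.1 is sesn4 in the name table, a member of the sestrins, stress-inducible proteins that restrain mTORC1 signalling. It was at 10.7 and 11.8 FPKM in the morphants and at 2.52 and 2.44 FPKM in the controls, 4.54-fold higher. For pik3r3a, a regulatory subunit of class I phosphoinositide 3-kinase whose transcript the study lists among those with a 3′UTR intron, the levels were 25.8 and 27.1 FPKM against 7.68 and 7.45 FPKM, 3.5004-fold higher. For rasl11b, a small GTPase of the RAS-like family, they were 32.1 and 34.6 FPKM against 9.37 and 9.66 FPKM, 3.505-fold higher. In all 6 genes both morphant libraries lay above both controls.

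The fallers started from higher control levels. Transcripts of ivns1abpb, a kelch-repeat protein whose human counterpart binds the influenza virus NS1 protein, were at 16.2 and 17.2 FPKM in the morphants and at 59.1 and 58.9 FPKM in the controls, 3.54-fold lower. Those of rpl22l1, a paralog of the 60S ribosomal protein gene rpl22, were at 42.8 and 42.7 FPKM against 90.1 and 90.7 FPKM, 2.12-fold lower. Both morphant libraries lay below both controls for each of these genes.

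**Figure D1:**
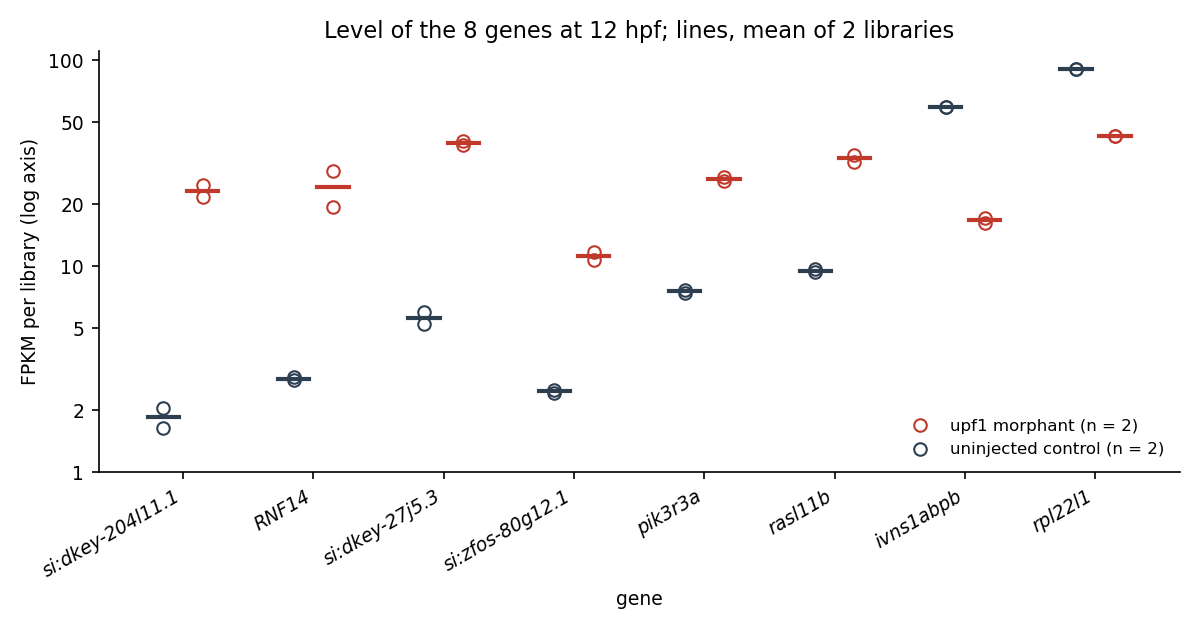
FPKM of each of the 8 genes in the 2 upf1 morphant (red) and 2 uninjected control (dark) libraries at 12 hpf on a log axis, with lines at the means. The first 6 genes are higher in both morphant libraries, si:dkey-204l11.1 by 12.5-fold, and ivns1abpb and rpl22l1 are lower by 3.54-fold and 2.12-fold.

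In the 12 hpf table limma called 2.3% of 17057 tested genes (adjusted p under 0.05 and at least 1.5-fold), 1.12% higher and 1.18% lower. All 8 genes were among these calls, which is no test of them, as they were chosen on this contrast. On the log2(FPKM + 1) scale, which understates changes of low genes, their differences ran from 3.08 for si:dkey-204l11.1 to -1.76 for ivns1abpb. They were not the 8 largest. Among all tested genes si:dkey-204l11.1 ranked 2nd from the top, RNF14 5th, si:dkey-27j5.3 6th, si:zfos-80g12.1 20th, rasl11b 25th and pik3r3a 27th, while ivns1abpb ranked 1st and rpl22l1 22nd from the bottom. The pleckstrin homology-like gene phlda3 (3.40), the DNA damage-inducible gadd45aa (2.84) and the forkhead factor foxo3b (2.79) had differences among the top 5 and are not among the 8. The mitochondrial ribosomal protein gene mrpl39 was next after ivns1abpb among the fallers, at -1.64. Groups of 2 against 2 did not overlap in 66.3% of all tested genes (32.4% higher, 33.9% lower), so nothing is read from the lack of overlap in the 8.

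Close relatives showed which differences were shared. The kelch gene ivns1abpa was lower as its paralog was, at 11.4 and 11.9 FPKM in the morphants and 19.0 and 19.2 FPKM in the controls, and this fall was called by limma (log2 difference -0.67, standard error 0.04, adjusted p = 9.6e-04). The ribosomal protein gene rpl22 was at 227 and 238 FPKM against 245 and 250 FPKM and was not called (-0.09, adjusted p = 0.165). Neither pik3r3b (-0.16, adjusted p = 0.143) nor rasl11a (0.07, adjusted p = 0.573) was called by limma. The sestrin, meteorin and further RNF14 genes were looked up after the data had been seen, once the other names of the 8 were found. Among the sestrins, limma called sesn3 (1.33, adjusted p = 0.00324) and sesn1 (0.75, adjusted p = 0.00916) higher but not sesn2 (0.17, adjusted p = 0.102). Levels of sesn3 were 58.6 and 80.002 FPKM in the morphants against 25.0 and 28.2 FPKM in the controls. Neither metrn (0.08, adjusted p = 0.16) nor metrnl (0.52, adjusted p = 0.00176, 1.45-fold) passed both parts of limma's call.

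Besides the gene described here, 2 further Ensembl genes carry the name RNF14 in the name table. The gene listed as LOC794117 (ENSDARG00000104631) was at 4.86 and 6.35 FPKM in the morphants and at 1.54 and 1.56 FPKM in the controls, a rise that limma called (1.36, adjusted p = 0.00164). The gene listed as rnf14 (ENSDARG00000043905) was at 4.51 and 3.94 FPKM against 3.75 and 3.97 FPKM, and its groups overlapped. Reads could be placed at more than 1 locus in the authors' mapping, so how far reads are shared among these copies was not tested and the RNF14 values are uncertain to that extent.

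In the gene lists drawn up for some of the members' families, limma called few other genes at 12 hpf. These lists leave out LOC794117 and the sestrins, of which sesn3 and sesn1 were called higher. Of 19 tested genes of the phosphoinositide 3-kinase pathway other than pik3r3a, limma called 0, with a median log2 difference of -0.10 against -0.00 over all genes. It called 0 of 13 RBR-type E3 ligases (median 0.01), where 8 lay above 0. Of 12 RAS-like GTPases it called RERG alone, lower at -0.81 (adjusted p = 0.00254), and of 14 kelch-repeat genes ivns1abpa alone. Of 46 ribosomal proteins of the large subunit it called 0, but 45 lay below 0, with a median of -0.11. NMD factors had 0 of 10 called and a median of 0.18. The knocked-down gene upf1 was itself at 30.3 and 31.3 FPKM against 45.2 and 45.9 FPKM, lower by 1.48-fold and so under the fold a call needs.

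In contrast, of 13 NMD targets that the study names, 10 rose by limma (median 1.40). The study chose that list partly on these samples, so it is no independent evidence of direction. Summed muscle markers were at 27.0 to 29.2 FPKM against 34.9 to 35.3 FPKM, with actc1b called lower by limma (-0.63, adjusted p = 0.00353), and of 3 notochord markers the collagen col2a1a was called lower too (-0.85, adjusted p = 0.00109) while shha (0.02) and ta (0.07) were not called. Summed neural markers were lower as well, at 144 to 152 FPKM against 177 to 190 FPKM, with 0 of 4 called by limma (median -0.27). Summed erythroid and epidermis markers overlapped between the groups. The part of these marker shifts in the differences of the 8 genes was not tested.

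In the mutant tables the 8 genes passed the filter on low values in every comparison, and by the labels limma called none of them in any. Fitted differences by label are adjusted for 1 factor of unwanted variation estimated from replicate libraries (RUVs). That factor is built from differences between libraries of the same label, and the FPKM of the targeted gene also differed between such libraries. How much of a genotype difference the factor took up was not tested. Calls by limma numbered 0 among 30281 genes of the magoh table, 0 among 30411 of the 21 hpf rbm8a table and 0 among 28845 of the 27 hpf one, so the background of calls was 0% in each. At an unadjusted p under 0.05 there were 1332, 660 and 4283 genes, and again 0 of the 8. The labelled groups did not overlap in 3.97% of tested genes in the magoh table (1.93% higher and 2.04% lower in labelled mutants), in 4.57% in the 21 hpf rbm8a table (2.12% and 2.44%) and in 20.4% in the 27 hpf one (10.5% and 9.92%). Among the 8 this held for si:dkey-204l11.1 in the 21 hpf rbm8a table and for no other gene or comparison.

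The receptor gene si:dkey-204l11.1 had positive differences by label in all 3 comparisons. In the 21 hpf rbm8a table it was at 9.55, 11.6 and 10.51 FPKM for the labelled mutants, against 9.48, 2.63 and 5.72 FPKM for the labelled siblings. The lowest labelled mutant and the highest labelled sibling differed by less than 0.1 FPKM, and limma's difference was 0.77 (95% interval -0.21 to 1.76, adjusted p = 1). At 27 hpf it was at 8.43, 10.04 and 3.48 FPKM against 5.94, 2.005 and 4.21 FPKM (0.61, interval -0.20 to 1.42). Levels in the magoh table were 16.2, 15.5 and 13.8 FPKM against 18.6, 5.17 and 13.0 FPKM (0.48, interval -0.36 to 1.31). Labelled sibling 2 was the lowest library in all 3 tables. The magoh difference was -0.07 without it and -0.05 without labelled mutant 1.

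The kinase subunit gene pik3r3a had the largest difference by label of the 8 in the 27 hpf rbm8a table. There it was at 11.9, 14.1 and 3.15 FPKM for the labelled mutants, against 4.92, 3.21 and 2.33 FPKM for the labelled siblings, with a log2 difference of 1.01 (interval -0.00 to 2.02, adjusted p = 0.336 from limma). Labelled mutants 1 and 2 were the highest, and labelled mutant 3 fell within the siblings. At 21 hpf the labelled rbm8a mutants were at 11.6, 1.87 and 2.70 FPKM and the labelled siblings at 8.62, 5.04 and 3.15 FPKM (0.08, interval -1.05 to 1.21, and -0.28 without the RUVs factor). The value of 1.87 FPKM came from 19 reads. Among the magoh libraries a single one, labelled mutant 1, was at 19.9 FPKM and the 5 others between 1.80 and 3.91 FPKM. The difference was 0.61 (interval -0.16 to 1.38), and 0.04 without that library.

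RNF14 had fitted differences by label of 0.22 to 0.41, with groups that overlapped in each comparison, and at 21 hpf the rbm8a difference of 0.34 was -0.07 without the RUVs factor. At 27 hpf it was at 9.76, 13.7 and 6.90 FPKM for the labelled rbm8a mutants, against 9.23, 4.95 and 6.70 FPKM for the labelled siblings. At 21 hpf the corresponding values were 13.7, 3.15 and 13.8 FPKM against 12.5, 8.22 and 7.43 FPKM, where the 3.15 FPKM rests on 31 reads. In the magoh table they were 22.7, 14.97 and 8.39 FPKM against 13.9, 10.4 and 11.6 FPKM.

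The sestrin gene si:zfos-80g12.1 likewise had small positive differences, from 0.21 to 0.30. It was at 3.10, 2.85 and 1.05 FPKM for the labelled rbm8a mutants at 27 hpf, against 1.88, 1.56 and 1.33 FPKM for the labelled siblings. Values at 21 hpf were 3.57, 5.97 and 2.60 FPKM against 3.31, 2.06 and 2.31 FPKM, and for magoh 6.11, 9.08 and 7.55 FPKM against 10.6, 3.49 and 7.44 FPKM. No table put all labelled mutants above all labelled siblings.

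The signs of the remaining risers varied or were opposite to 12 hpf. The meteorin-like gene si:dkey-27j5.3 had differences of 0.29 for magoh, -0.06 for rbm8a at 21 hpf and -0.31 for rbm8a at 27 hpf, with levels of 2.13, 2.81 and 2.08 FPKM against 4.27, 2.33 and 2.89 FPKM at 27 hpf. At 21 hpf its levels were 3.17, 9.36 and 4.71 FPKM for the labelled rbm8a mutants against 4.81, 3.003 and 5.55 FPKM, and the difference was 0.23 without the RUVs factor. The GTPase gene rasl11b was lower by label in each, with differences of -0.53 in the magoh table (interval -1.28 to 0.23) and of -0.52 and -0.62 in the 21 and 27 hpf rbm8a tables. At 27 hpf it stood at 36.1, 25.4 and 78.5 FPKM for the labelled mutants, against 64.2, 97.7 and 56.2 FPKM for the labelled siblings. At 21 hpf it was at 54.9, 55.9 and 161 FPKM against 154, 87.6 and 132 FPKM, and in the magoh table at 107, 49.3 and 57.1 FPKM against 50.7, 248 and 58.3 FPKM. Labelled mutants 1 and 2 were the lowest libraries in both rbm8a tables.

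Neither faller was lower by label in all 3 comparisons. For ivns1abpb the differences were 0.00, 0.20 and 0.15 (magoh, rbm8a at 21 hpf and rbm8a at 27 hpf), with 27 hpf levels of 3.55, 4.23 and 4.92 FPKM against 2.26, 4.29 and 4.79 FPKM. At 21 hpf ivns1abpb was at 9.88, 2.21 and 6.66 FPKM for the labelled rbm8a mutants against 3.91, 9.87 and 6.24 FPKM, a lower mean, and its difference was -0.18 without the RUVs factor. For rpl22l1 they were 0.09, -0.14 and 0.57, with 27 hpf levels of 44.3, 49.7 and 44.1 FPKM against 17.6, 50.2 and 31.7 FPKM. A single library set most of the range of rpl22l1 at 21 hpf, labelled rbm8a mutant 2 at 3.03 FPKM from 7 reads, while the 5 others lay between 26.5 and 57.7 FPKM. In the magoh table labelled mutant 1 was at 91.4 FPKM and the 5 others between 14.4 and 41.0 FPKM.

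**Figure D2:**
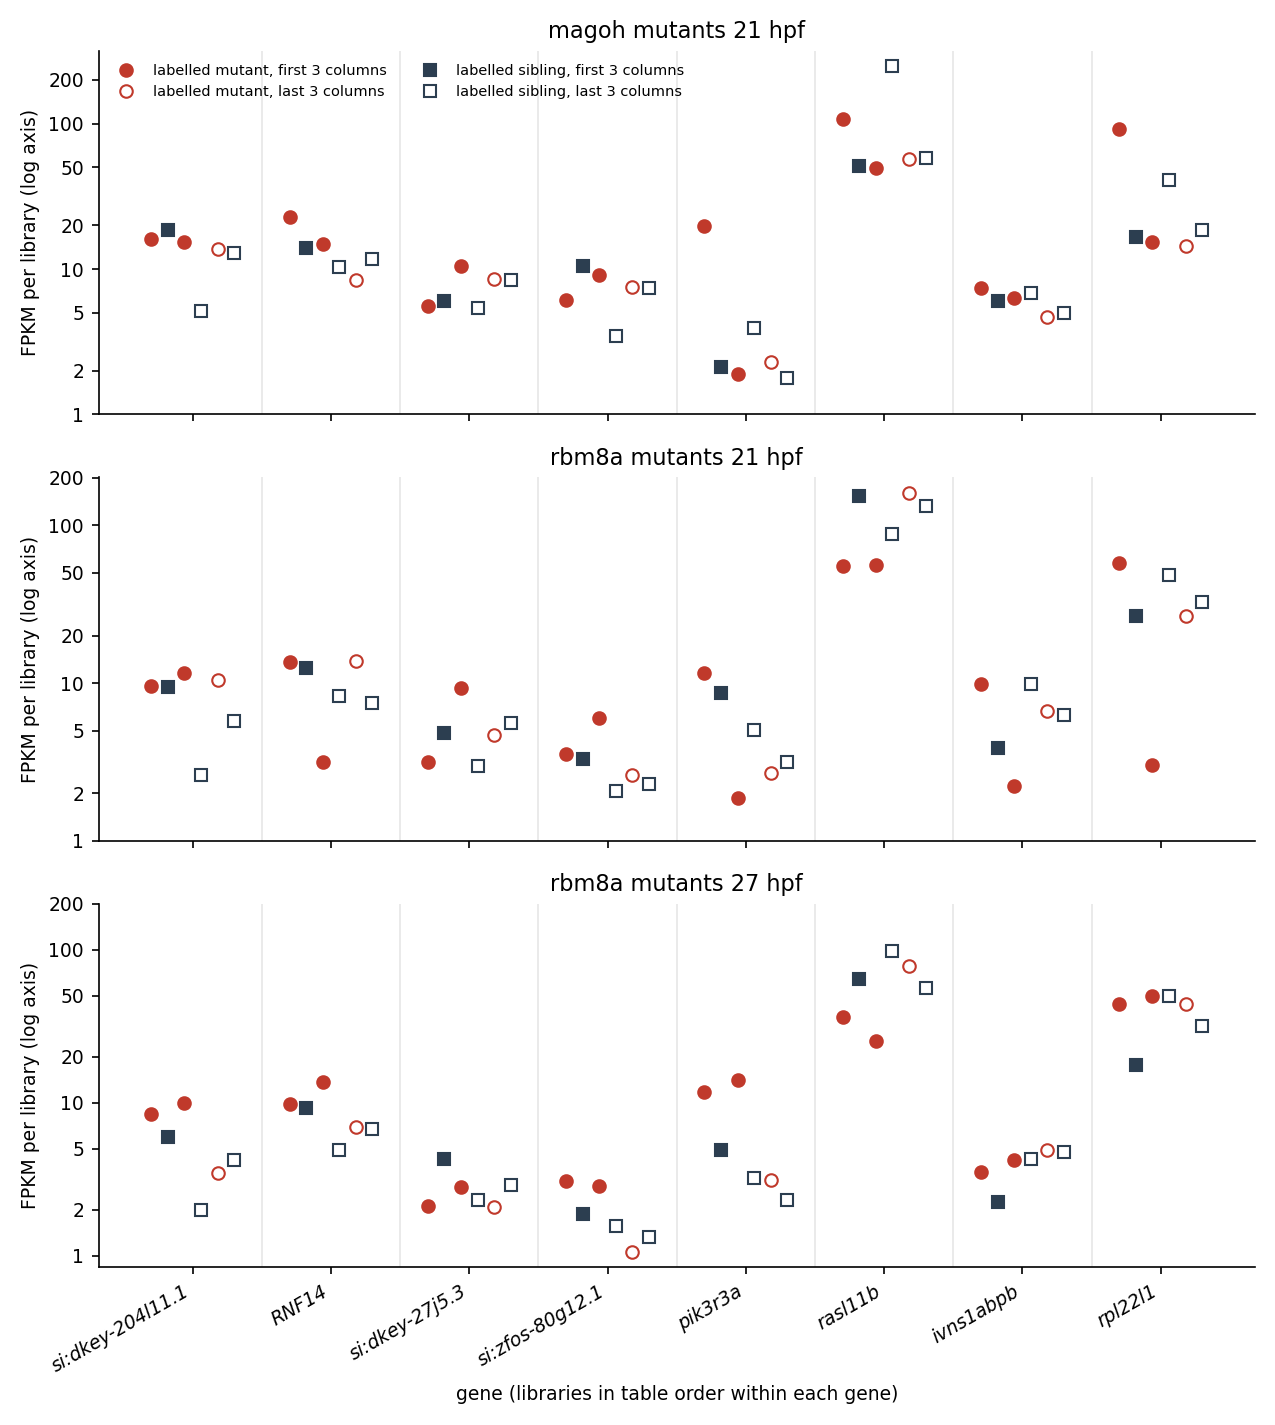
FPKM of each of the 8 genes in the 6 libraries of each mutant table on a log axis, in table order within a gene, with libraries labelled mutant as red circles, those labelled sibling as dark squares, and filled symbols for the first 3 columns. At 27 hpf the filled symbols lie above the open ones for si:dkey-204l11.1, RNF14, si:zfos-80g12.1 and pik3r3a, and below them for ivns1abpb.

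The medians of the 8 differences by label were 0.21 (magoh), 0.14 (rbm8a, 21 hpf) and 0.34 (rbm8a, 27 hpf), against 0.05, -0.00 and 0.01 over all genes tested. Over the 6 risers alone they were 0.26, 0.19 and 0.34, and 5, 4 and 4 of these lay above 0. Of the 24 intervals by label, 23 did not reach the difference seen at 12 hpf in upf1 morphants, the exception being pik3r3a in the 27 hpf rbm8a table (1.68 at 12 hpf, interval -0.00 to 2.02). For si:dkey-204l11.1 the highest upper bound was 1.76, against 3.08 at 12 hpf. For ivns1abpb the lowest lower bound was -0.55, against -1.76. The 12 hpf differences are the ones the 8 genes were picked on for being large, so nothing is read from the count of 23. Stages, library types and normalization differed between these tables, and the intervals rest on labelled groups between which the FPKM of the targeted gene overlapped, so the sizes are set side by side and were not tested against each other.

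**Figure D3:**
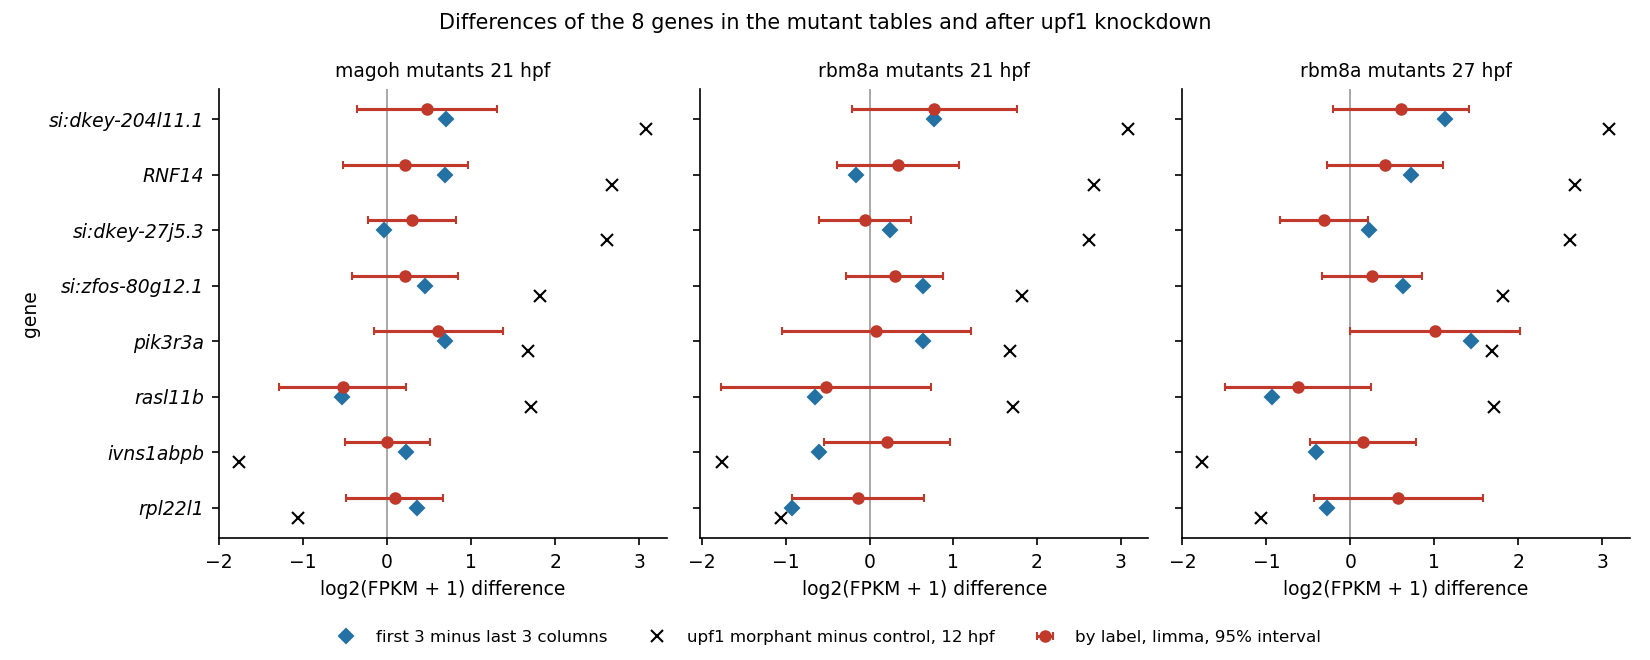
Log2(FPKM + 1) differences of the 8 genes in each mutant table by label with 95% intervals from limma (red), between the first 3 and last 3 columns (blue diamonds), and in upf1 morphants at 12 hpf (crosses). The intervals by label leave out the upf1 value, on which the genes were chosen, in 23 of 24 cases. At 27 hpf the diamond of pik3r3a lies at 1.44 beside an upf1 value of 1.68, and that of rasl11b at -0.94 beside 1.71.

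By place in the table at 27 hpf, the targeted gene rbm8a was at 3.69, 2.82 and 3.65 FPKM in the first 3 columns and at 12.7, 14.4 and 10.7 FPKM in the last 3. The same division separated 5 of the 8 genes, where 6.64% of all tested genes did not overlap, 3.19% with the first 3 columns higher and 3.45% with them lower. Of the last 3 columns, labelled sibling 2 and mutant 3 were the shallowest libraries of this comparison, with 85 and 72 reads on pik3r3a. Labelled sibling 3, also among them, was the deepest. The part of depth in this division was not tested. The kinase subunit gene pik3r3a was at 11.9, 4.92 and 14.1 FPKM in the first 3 columns and at 3.21, 3.15 and 2.33 FPKM in the last 3, 3.56-fold higher on average. The receptor gene si:dkey-204l11.1 was at 8.43, 5.94 and 10.04 FPKM against 2.005, 3.48 and 4.21 FPKM, 2.52-fold higher. RNF14 was 1.76-fold and si:zfos-80g12.1 1.98-fold higher in the first 3 columns. In the other direction ivns1abpb was at 3.55, 2.26 and 4.23 FPKM in the first 3 columns and at 4.29, 4.92 and 4.79 FPKM in the last 3. Taken as first 3 minus last 3 columns, these 5 differences have the sign seen at 12 hpf, while that of rasl11b has the opposite sign. No group is named by place, so the order of subtraction is arbitrary and nothing is read from these signs.

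The other 3 genes overlapped by place at 27 hpf. The GTPase gene rasl11b had a log2 difference of -0.94 between first and last columns, against 1.71 at 12 hpf. Differences of si:dkey-27j5.3 and rpl22l1 were 0.22 and -0.28. Among genes outside the 8, sesn3 was at 12.0, 7.54 and 19.3 FPKM against 2.70, 4.74 and 3.90 FPKM. The same columns also separated pik3r3b, at 2.77, 2.73 and 2.83 FPKM against 1.77, 2.19 and 2.08 FPKM, and LOC794117, 2.15-fold higher in the first 3, and sesn1, 1.96-fold higher. The relatives rpl22, ivns1abpa, rasl11a, sesn2, metrn, metrnl and rnf14 overlapped by place. By label at 27 hpf the groups of sesn3, pik3r3b, LOC794117 and sesn1 overlapped and limma called none of these genes. Their differences by label were 0.99, 0.16, 0.29 and -0.05.

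At 21 hpf the targeted gene rbm8a also divided by place, at 7.01, 6.99 and 7.28 FPKM in the first 3 columns and at 13.2, 8.39 and 13.3 FPKM in the last 3. In the magoh table si:dkey-204l11.1 (1.57-fold) and RNF14 (1.70-fold) were higher in the first 3 columns without overlap, and 6 of the 8 genes overlapped, where 4.21% of tested genes did not (1.87% with the first 3 higher, 2.34% with them lower). The targeted gene magoh overlapped by place in its own table, at 17.005, 4.42 and 3.67 FPKM against 13.6, 3.58 and 6.51 FPKM. In the rbm8a table at 21 hpf si:zfos-80g12.1 alone did not overlap, at 3.57, 3.31 and 5.97 FPKM against 2.06, 2.60 and 2.31 FPKM, where 5.35% of tested genes did not (2.88% with the first 3 higher, 2.47% with them lower). Median differences by place over the 6 risers were 0.57 (magoh), 0.44 (rbm8a at 21 hpf) and 0.67 (rbm8a at 27 hpf), against 0.02, -0.03 and 0.01 over all genes. These medians include rasl11b, which had a negative difference by place in each table. They also include si:dkey-27j5.3 with -0.03 in the magoh table and RNF14 with -0.16 in the rbm8a table at 21 hpf. Each of these negative differences came with overlap.

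Some libraries carried far fewer reads on genes than others. Per FPKM, the libraries labelled rbm8a mutant 2 and 3 at 21 hpf held 3.32% and 3.74% of the reads of labelled sibling 3, the deepest of that table. At 27 hpf labelled sibling 2 and mutant 3 held 4.09% and 3.53% of those of labelled sibling 3. Counts on the 8 genes ran from 7 to 281 reads in labelled rbm8a mutant 2 at 21 hpf and from 25 to 887 in labelled mutant 3 at 27 hpf, against 3132 to 11180 reads over both morphant libraries. In the magoh table labelled mutant 1 held, per FPKM, 18.7% of the reads of labelled mutant 3. Their recovered depths were 19536851 and 24086384 reads, so the FPKM were not scaled to recovered depth alone. Labelled mutant 1 also stood apart with 20071 FPKM summed over the large-subunit ribosomal proteins, where the other 5 libraries had 644 to 5342 FPKM. Leaving that library out turned the magoh differences of si:dkey-204l11.1 (to -0.05), RNF14 (to -0.16), si:zfos-80g12.1 (to -0.07), ivns1abpb (to -0.02) and rpl22l1 (to -0.26). Leaving out labelled sibling 2 turned those of si:dkey-204l11.1 (to -0.07), RNF14 (to -0.11), si:zfos-80g12.1 (to -0.10) and rpl22l1 (to -0.13), and that of rasl11b became -0.00.

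Over the 18 mutant-table libraries, centred within each table, the 8 genes did not vary as a block. The closest pairs were ivns1abpb with rpl22l1 (Pearson's r = 0.82), si:dkey-204l11.1 with si:zfos-80g12.1 (r = 0.80) and RNF14 with pik3r3a (r = 0.70). The sestrin gene si:zfos-80g12.1 ran opposite to rasl11b (r = -0.81), and si:dkey-27j5.3 opposite to both fallers (r = -0.81 with ivns1abpb and -0.86 with rpl22l1). By place at 27 hpf pik3r3a divided in the same direction as si:dkey-204l11.1, si:zfos-80g12.1 and RNF14, while by label all of these overlapped. Over the 18 libraries the r of pik3r3a with them was 0.28, 0.06 and 0.70. These are descriptions over 18 libraries that share tables, depth and the libraries that stand apart.

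**Figure D4:**
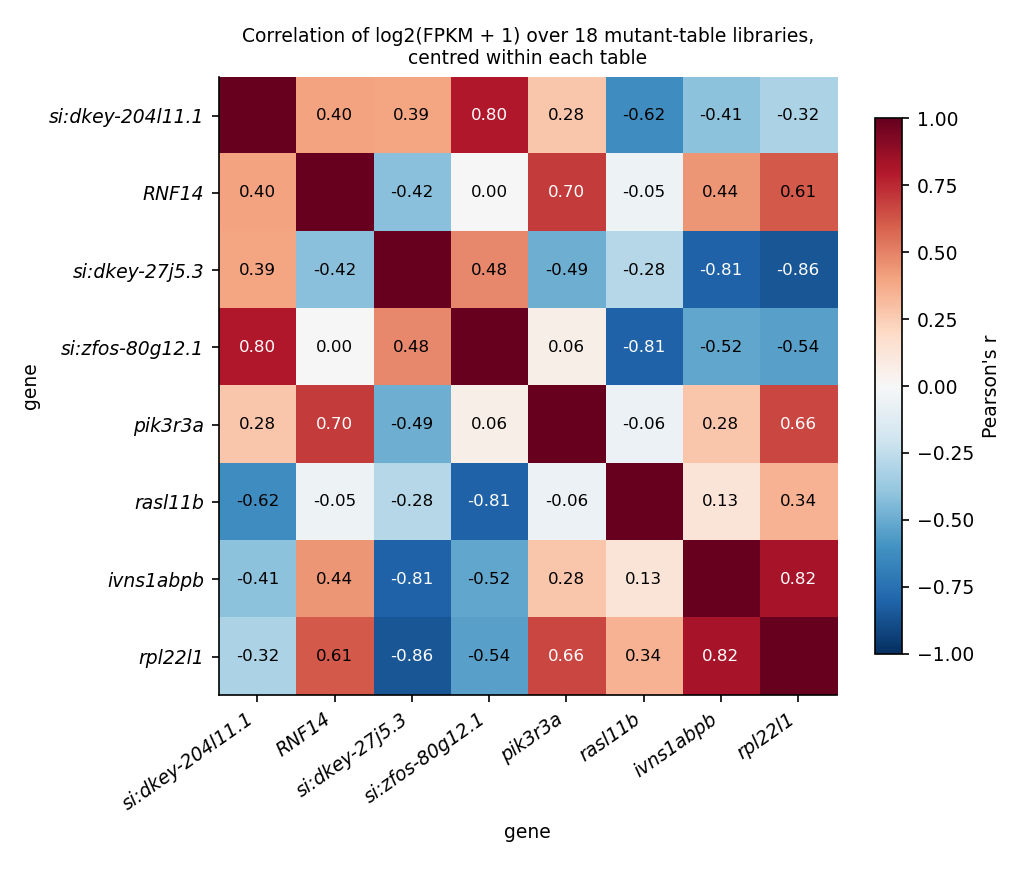
Pearson's r between each pair of the 8 genes over 18 mutant-table libraries, from log2(FPKM + 1) centred within each table, with blue for negative and red for positive values. The highest pairs are ivns1abpb with rpl22l1 (0.82) and si:dkey-204l11.1 with si:zfos-80g12.1 (0.80), and the most negative is si:dkey-27j5.3 with rpl22l1 (-0.86).

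Among 28606 genes tested in all 3 mutant tables, the 2 closest in pattern to pik3r3a were ccng1, the cyclin G1 gene (r = 0.976), and igf2a, an insulin-like growth factor (r = 0.976). Closest to si:zfos-80g12.1 were mn1b (r = 0.938) and bbc3, which encodes the pro-apoptotic Puma (r = 0.932). For si:dkey-204l11.1 they were si:ch211-215a10.4 (r = 0.851) and the ubiquitin-like gene isg15 (r = 0.831), and for RNF14 a 5S_rRNA gene (ENSDARG00000083891, r = 0.899) and twistnb, an RNA polymerase I subunit (r = 0.867). For rasl11b they were si:ch211-190o6.3 (r = 0.958) and prr12a (r = 0.937), and for si:dkey-27j5.3 tprn (r = 0.940) and the unnamed ENSDARG00000098872 (r = 0.925). For ivns1abpb they were LOC101885164 (r = 0.935) and hspe1, a mitochondrial chaperonin (r = 0.921), and for rpl22l1 the calcium-binding sri (r = 0.9748) and cops4 of the COP9 signalosome (r = 0.974). Each is an r over 18 libraries, chosen as the highest of many.

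Of the members' families, limma called 0 genes by label in every mutant table. At 27 hpf all 46 large-subunit ribosomal proteins had differences above 0, with a median of 0.83 against 0.01 over all genes, while at 21 hpf 2 of 46 did in the rbm8a table (median -0.17) and 42 of 46 in the magoh table (median 0.39). Their summed levels overlapped between the labelled groups in each comparison, at 27 hpf with 7267 to 8914 FPKM against 2777 to 7629 FPKM. In the magoh table the highest sum, 20071 FPKM, was that of labelled mutant 1. Muscle markers at 27 hpf summed to 315 to 474 FPKM in the libraries labelled mutant and 165 to 266 FPKM in those labelled sibling. Epidermis markers summed to 1028 to 1590 FPKM against 434 to 1010 FPKM, and both sets were without overlap. Summed neural, erythroid and notochord markers overlapped between the labelled groups. Of all single genes tested in that table, 20.4% did not overlap by label. The part of these ribosomal protein and marker shifts in the 27 hpf differences by label was not tested. The difference of rpl22l1 was 0.57 at 27 hpf, and at 21 hpf it was -0.14 in the rbm8a table and 0.09 in the magoh table. The phosphoinositide 3-kinase list had medians of 0.12, 0.01 and 0.09 over 24 genes (magoh, rbm8a at 21 hpf and rbm8a at 27 hpf). At 27 hpf these genes, without pik3r3a, summed to 63.7 to 72.1 FPKM in libraries labelled mutant and 56.0 to 57.2 FPKM in those labelled sibling. Sums of the RBR, RAS-like and kelch lists overlapped there.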

How the data were processed

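Libraries were aligned by the authors to GRCz10 with TopHat2 2.0.14, counted per gene and deposited as FPKM, scaled within each table. The deposited signal column, a mean of normalized counts per gene, served only to recover reads from the FPKM and hence depth. The deposited columns of the authors' own comparisons (log2 fold changes, their errors, test statistics and p-values) were not used, and the RIP-Seq table, deposited by the authors as RPKM per transcript, was not analysed here. FPKM were tested as log2(FPKM + 1) with limma 3.58.1 in R 4.3.3 (trended variance), for genes at 0.5 FPKM or more in at least 3 libraries (2 at 12 hpf). For the mutants, 1 factor of unwanted variation, estimated as in RUVs from replicate libraries, was a covariate. Calls needed a Benjamini-Hochberg adjusted p under 0.05 and at least 1.5-fold. Tests were checked on simulated data.

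The 8 genes and all lists were chosen with earlier results of these data known. Named genes were the 8, the targeted genes, paralogs, the 2 genes closest in pattern to each of the 8 and up to 3 called genes of each list. Of the 8, si:dkey-204l11.1 and RNF14 have no symbol in the files and were named from the Ensembl name table. Alternatives were the pseudocount, the filter, the RUVs factors, quantile normalization, no fold threshold, the replicate block and leaving out each library. A withheld item and the gene list that holds it are not reported here.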

Additional observations from a re-analysis of the deposited data

How the results depend on the processing

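None of the 8 genes was called by limma by label in any mutant table under any alternative run. Genes called over the whole table rose from 0 to 32 at 27 hpf with 2 RUVs factors (25 higher, 7 lower). Leaving out 1 library gave 0 to 612 at 27 hpf, the most without labelled sibling 2, and 0 to 26 in the 21 hpf rbm8a table, the most without labelled mutant 1. Every other mutant run called 0 genes over the whole table. In those runs none of the 8 could differ from the background, so nothing is read from their lack of calls. At 12 hpf, 393 calls became 901 with a pseudocount of 0.1 FPKM and 4082 with no fold threshold, and 389 to 506 leaving out 1 library.

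Signs changed in the 21 hpf rbm8a table without the RUVs factor, for RNF14 (-0.073), si:dkey-27j5.3 (0.23), pik3r3a (-0.28) and ivns1abpb (-0.18), and the cause was not tested. The replicate block in place of that factor gave the same 4 values. This had to be so, as each replicate number holds 1 library of each label, and it is no second check of the signs. With the block limma called 0 genes in each mutant table and 414 at 12 hpf. Same-numbered libraries deviated together in 1 of 9 mutant-table pairs, replicate 3 of the magoh table (r = 0.64), while the other 8 had r from -0.78 to -0.15, so the numbers were not taken to pair the libraries. Quantile normalization turned ivns1abpb (-0.11) and rpl22l1 (-0.15) in the magoh table, pik3r3a at 21 hpf (-0.022) and ivns1abpb at 27 hpf (-0.070), and 2 RUVs factors turned ivns1abpb in the magoh table (-0.022).

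Leaving out 1 library turned 24 of the differences. In the magoh table si:dkey-204l11.1 ranged from -0.070 to 0.77, RNF14 from -0.16 to 0.56, si:zfos-80g12.1 from -0.10 to 0.42, ivns1abpb from -0.11 to 0.13 and rpl22l1 from -0.26 to 0.28. In the 21 hpf rbm8a table si:dkey-27j5.3 ranged from -0.18 to 0.16, pik3r3a from -0.75 to 0.59, rasl11b from -1.17 to 0.16, ivns1abpb from -0.081 to 0.38 and rpl22l1 from -0.73 to 0.20. At 27 hpf si:zfos-80g12.1 ranged from -0.014 to 0.62, ivns1abpb from -0.089 to 0.36 and pik3r3a, which kept its sign, from 0.41 to 1.68 (adjusted p from limma 0.157 to 0.735 over all alternatives). Depth limits the shallow libraries most, down to 7 reads for rpl22l1 in labelled rbm8a mutant 2 at 21 hpf.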
